A study of Mus musculus with 56 samples.

Results

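The first 4 h without food were examined in the liver of night-fed mice by setting 4 animals killed 4 h after the light came on (zeitgeber time, ZT4) against 4 animals killed as it came on (ZT0), which made 8 of the 56 liver libraries. All animals were female C57BL/6J mice aged 9 weeks, housed in groups under 12 h of light a day, that had been given food for 7 days at night only (nighttime-restricted feeding, NRF) or by day only (daytime-restricted feeding, DRF). Livers were taken from 4 animals a regimen at ZT0, 4, 8, 12, 16, 20 and 24, which gave 14 groups, and RNA depleted of ribosomal RNA was sequenced in strand-specific libraries. In NRF mice food was withdrawn as the light came on at ZT0, so time without food and time of day moved together over the 4 h and their parts in a change cannot be told apart within NRF. DRF livers served for 2 further comparisons that share no library with the first: ZT16 against ZT12, the same 4 h after food at the start of the dark phase, and ZT4 against ZT0, the same clock hours with food being given. Food intake and body temperature of these animals were not analysed here, and whole liver was sampled, so a change in a cell type's share and a change in RNA per cell cannot be told apart.

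When feeding stops, insulin falls, and the liver shifts from storing nutrients as glycogen and fat towards releasing glucose and burning fatty acids. SREBP1c (Srebf1) drives fatty acid synthesis in the fed state, PPARα drives fatty acid oxidation in the fasted state, and FOXO1 and cAMP signals drive gluconeogenesis. The hepatic clock runs beside these signals as a feedback loop in which BMAL1 and CLOCK activate Per, Cry, Nr1d1 and Nr1d2, whose products repress the activators, and feeding time is a strong setting cue for it. Eating also raises protein synthesis and secretion, which load the endoplasmic reticulum (ER), and raises body temperature, to which heat shock and cold-inducible genes respond.

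Levels are given as scaled counts, obtained by undoing a logarithm inferred from the deposited values themselves. They carry no correction for gene length and so compare libraries, not genes. The 8 libraries summed to 850529 to 937535 scaled counts, and their correlations within a group were 0.978 to 0.986 at ZT0 and 0.973 to 0.983 at ZT4. Summed hepatocyte markers were 102972 to 108562 at ZT0 and 87769 to 108009 at ZT4, with 6 of 8 markers tested, and of 13 indices of cell type, length trend and library composition the lymphocyte markers had the lowest unadjusted p, 0.17 (exact permutation tests, two-sided, n = 4 and 4). The smallest p this design allows is 0.029, so that after adjustment over 13 indices a single index could not have passed. Among all marker genes of the 10 cell type lists, Retnlg, a neutrophil gene, alone passed the test across all genes, at 0.103 ± 0.0431 and 0.319 ± 0.0545 scaled counts (SD, n = 4, adjusted p = 0.01), and the summed neutrophil markers were 0.755 to 1.75 at ZT0 and 0.849 to 1.84 at ZT4. The length index, the rank correlation across genes of exon length with a library's deviation from the mean library, was -0.183 ± 0.153 at ZT0 and -0.0631 ± 0.168 at ZT4 (p = 0.37), and with the length trend removed 307 genes were higher and 373 lower at ZT4 and 69 of the 72 named genes kept their direction and side of the threshold. That trend was fitted on genes with a mean of at least 1 scaled count and subtracted from all genes.

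Of 25400 genes tested, 259 were higher at ZT4 (1.02%) and 431 were lower (1.7%) at an adjusted p under 0.05 by limma with Benjamini-Hochberg adjustment over all genes. Changes were moderate, with 19 of the higher and 24 of the lower genes at 2-fold or more. The 4 and 4 libraries did not overlap for 173 of the higher and 317 of the lower genes, against 1573 of all 25400 genes. By annotation 206 of the higher and 377 of the lower genes were protein-coding, and the higher genes had a median exon length of 4697 bases against 3714 bases for the lower genes and 3950 bases over all genes with a mean of at least 1 scaled count. The calls use the spread of all 56 libraries. With the 8 compared libraries alone 3 genes were higher and 2 lower, with Nr1d1, Nr1d2, Igfals and Ppard among them (adjusted p = 0.042 each).

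The ZT24 livers of NRF mice, which close the 24 h series at the same phase of the light cycle, gave a second starting group. Against ZT24, 1827 genes were higher at ZT4 (7.19%) and 1750 lower (6.89%). Of the genes called from ZT0, 190 higher genes (73.4% of the ZT0 calls, 10.4% of the ZT24 calls) and 313 lower genes (72.6% and 17.9%) were also called in that direction from ZT24, and 0 were called in the opposite direction. Both comparisons end at the same ZT4 livers, so agreement in direction is partly built in and is not an independent check of ZT4. The ZT0 and ZT24 livers, which should stand at the same phase, themselves differed in 1989 genes, and the length index was 0.181 ± 0.0966 at ZT24. The leading genes of each direction were required to pass from both starts. Scaled by median of ratios, 48.6% of the calls were higher (359 higher, 379 lower), against 37.5% here, so the balance of directions depends on the scaling. Leaving out 1 library moved the counts most for ZT0 replicate 3 (74 higher, 115 lower), ZT0 replicate 2 (119 and 226) and ZT4 replicate 4 (121 and 164).

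Clock genes changed in both directions. Nr1d1, which encodes the haem-binding repressor REV-ERBα, had scaled counts of 1.702, 3.36, 1.204 and 5.596 at ZT0 and 54.2, 54.6, 42.9 and 39.2 at ZT4. All ZT4 libraries stood far above all ZT0 libraries, and the mean rose 16.1-fold, from 2.97 ± 1.98 to 47.7 ± 7.86 (SD, n = 4, log2 difference 3.74, SE 0.31, adjusted p = 2.7e-11). Its paralogue Nr1d2 (REV-ERBβ) had 14.6, 11.8, 8.73 and 18.1 at ZT0 and 62.03, 83.5, 61.5 and 74.7 at ZT4 and rose 5.29-fold without overlap (log2 difference 2.35, SE 0.17, adjusted p = 1.6e-13). Dbp, a PAR bZIP activator that peaks after Nr1d1 in the daily order, rose from a low level, from 0.357 ± 0.123 to 1.92 ± 0.859 (SD, n = 4, log2 difference 1.06, SE 0.21, adjusted p = 0.0029). Cry1, the late repressor of the loop, fell 3.02-fold, with 126, 114, 103 and 82.4 at ZT0 and 51.3, 29.96, 36.96 and 22.9 at ZT4 and no overlap (log2 difference -1.61, SE 0.20, adjusted p = 1.4e-06). Nfil3, the repressor that opposes the PAR bZIP factors, fell 1.83-fold (log2 difference -0.89, SE 0.16, adjusted p = 0.0011). Per2 had 17.7, 13.5, 22.8 and 7.096 at ZT0 and 9.28, 4.999, 4.25 and 3.88 at ZT4, and it fell although its groups overlapped (log2 difference -1.26, SE 0.26, adjusted p = 0.0037).

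Of 19 clock genes, 3 were higher and 4 lower, with a median log2 difference of -0.14 against 0.00 over all genes, and from ZT24 3 were higher and 7 lower. Among all genes 7.19% were higher and 6.89% lower from ZT24, which is the background for every list count from that start. With the 8 compared libraries alone 2 were higher and 0 lower, and on the values as deposited 3 and 3. The higher count stayed at 3 and the lower count ran from 4 to 6 as each library was left out. The activators themselves did not pass the test from ZT0, with log2 differences of -0.47 (adjusted p = 0.18) for Arntl (BMAL1), -0.07 (adjusted p = 0.91) for Clock and -0.54 (adjusted p = 0.071) for Npas2, and neither did Per1 (log2 difference -0.67, adjusted p = 0.19), Per3 (log2 difference -0.43, adjusted p = 0.28) and Bhlhe40 (log2 difference -0.79, adjusted p = 0.059). Npas2 and Bhlhe40 among them did pass from ZT24. Of 10 clock output genes 0 were higher and 3 lower, with a median of -0.47. They were Usp2, a deubiquitinase (from 1.65 ± 0.754 to 0.406 ± 0.260, adjusted p = 0.047), Wee1, a cell cycle kinase (from 4.99 ± 1.04 to 3.02 ± 0.502, adjusted p = 0.035) and Nampt, the rate-limiting enzyme of NAD salvage (from 23.2 ± 2.78 to 17.7 ± 3.14, adjusted p = 0.037). From ZT24 the count was 0 higher and 6 lower. Nampt (adjusted p = 0.107 to 0.197) missed the threshold without ZT0 replicate 2 or 3 or ZT4 replicate 3 or 4. Wee1 (adjusted p = 0.0633 to 0.155) missed the threshold without ZT0 replicate 1, 2 or 3 or ZT4 replicate 1 or 2. Usp2 (adjusted p = 0.0887 to 0.180) missed the threshold without ZT0 replicate 1, 2 or 3 or ZT4 replicate 2 or 4.

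The E-box CACGTG, bound by BMAL1 and CLOCK, was searched on both strands of RefSeq promoters (GRCm38.p6, 250 bases before to 50 after the start) of the clock genes. It was present in 5 of 16 clock genes with a promoter in the table, against 8.09% of 27025 genes, and in 1 of the 5 called ones among these, Cry1. The D-box TTATGNAA, bound by PAR bZIP factors and NFIL3, was in 2 of 16, against 3.99% of genes, and in 0 of the called ones. The Cry1 promoter, the 1 gene with an E-box in this window among the 5 called clock genes with a promoter in the table, is shown (chr10:85185005-85185304, minus strand, 5′ to 3′) with the E-box in capitals.
Cry1: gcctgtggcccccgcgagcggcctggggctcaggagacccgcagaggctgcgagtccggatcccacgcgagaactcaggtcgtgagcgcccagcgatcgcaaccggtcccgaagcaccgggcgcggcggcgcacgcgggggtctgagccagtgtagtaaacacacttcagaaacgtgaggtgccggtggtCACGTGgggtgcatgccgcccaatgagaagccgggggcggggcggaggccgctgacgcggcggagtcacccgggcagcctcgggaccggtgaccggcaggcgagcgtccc

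**Figure D1:**
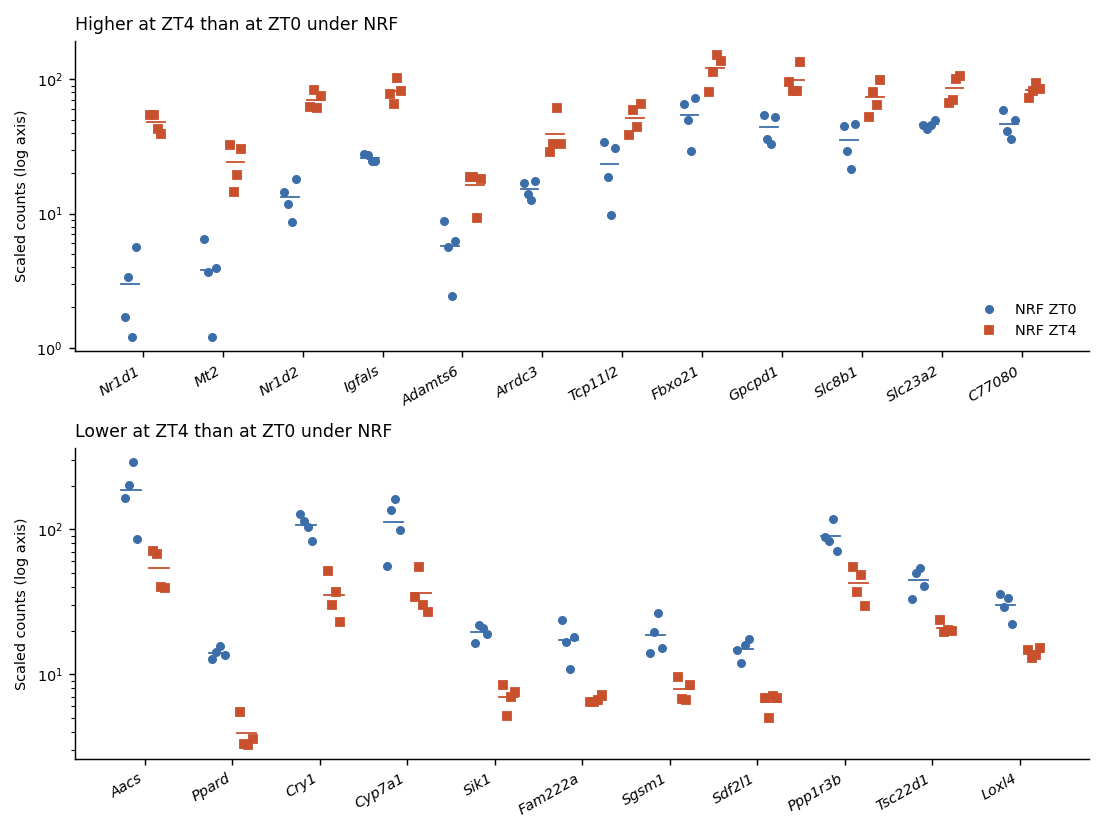
Scaled counts, on a log axis, of the 12 higher and, all but 1, the 12 lower protein-coding genes with the largest log2 difference that passed from both starts and did not overlap, with circles for the 4 ZT0 livers, squares for the 4 ZT4 livers and lines for the group means. Nr1d1 shows the widest gap, from a mean of 2.97 to 47.7, while C77080 moved from 46.4 to 83.3.

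Among the protein-coding genes that met the naming rule (62 higher and 165 lower), the higher ones that lead after the clock genes span metal handling, growth signalling and transport. Mt2, a metallothionein that binds zinc and copper and is a target of glucocorticoids, had 6.43, 3.68, 1.202 and 3.96 at ZT0 and 32.2, 14.5, 19.4 and 30.3 at ZT4. The groups did not overlap and the mean rose 6.32-fold (log2 difference 2.44, SE 0.50, adjusted p = 0.0038). Gm45774, annotated on the other strand, overlaps 73.5% of Mt2's exons and also passed, so reads of the pair cannot be told apart if strand was not used in counting. Mt1, the neighbouring metallothionein gene, went from 12.1 ± 7.84 to 19.7 ± 3.54 (SD, n = 4) and did not pass (log2 difference 0.87, adjusted p = 0.35). Igfals, the acid-labile subunit that holds IGF1 in the circulating complex, had 27.8, 27.4, 24.7 and 24.6 at ZT0 and 77.9, 65.8, 102 and 81.6 at ZT4, a 3.13-fold rise (log2 difference 1.59, SE 0.40, adjusted p = 0.021), with counts rebuilt from a searched exon length. Adamts6, a secreted metalloprotease, rose 2.82-fold, from 5.76 ± 2.59 to 16.3 ± 4.66 (SD, n = 4, log2 difference 1.40, adjusted p = 5.9e-04). Arrdc3, an α-arrestin, had 16.97, 14.1, 12.7 and 17.5 at ZT0 and 28.9, 32.8, 61.7 and 32.96 at ZT4 and rose 2.55-fold (log2 difference 1.24, adjusted p = 0.016), its ZT4 livers spreading widely.

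Of the other leading higher genes, Fbxo21, a subunit of a ubiquitin ligase, had 65.3, 49.96, 29.3 and 72.1 at ZT0 and 80.5, 113, 152 and 136 at ZT4 and rose 2.23-fold (log2 difference 1.18, adjusted p = 4.4e-04). Tcp11l2 rose 2.23-fold (log2 difference 1.23, adjusted p = 0.0084), and Gpcpd1, which breaks down glycerophosphocholine, rose 2.24-fold (log2 difference 1.15, adjusted p = 6.7e-04). Slc8b1, the mitochondrial sodium-calcium exchanger, rose 2.08-fold, from 35.6 ± 12.4 to 73.97 ± 19.9 (SD, n = 4, log2 difference 1.06, adjusted p = 0.0033). Slc23a2, a vitamin C transporter, rose 1.87-fold (log2 difference 0.86, adjusted p = 5.9e-04) and C77080 rose 1.79-fold (log2 difference 0.85, adjusted p = 2.3e-04). None of these groups overlapped, as the naming rule required. Tcp11l2 (adjusted p = 0.0512 to 0.114) missed the threshold without ZT0 replicate 3 or ZT4 replicate 4. Arrdc3 (adjusted p = 0.0531 to 0.0825) missed the threshold without ZT0 replicate 2 or 3 or ZT4 replicate 3. Igfals (adjusted p = 0.0511 to 0.0780) missed the threshold without ZT0 replicate 2 or 3 or ZT4 replicate 3 or 4.

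Aacs, the cytosolic enzyme that turns acetoacetate back into acetoacetyl-CoA for lipid synthesis, led the lower genes that met the naming rule. Its scaled counts were 164, 201, 289.6 and 85.5 at ZT0 and 70.4, 67.96, 39.8 and 39.2 at ZT4, wide at ZT0 but without overlap, and the mean fell 3.41-fold (log2 difference -1.67, SE 0.37, adjusted p = 0.008). Ppard, the nuclear receptor PPARδ, had 12.7, 14.1, 15.7 and 13.6 at ZT0 and 5.53, 3.32, 3.28 and 3.59 at ZT4 with narrow groups and fell 3.57-fold (log2 difference -1.63, SE 0.17, adjusted p = 2.0e-08). Cyp7a1, the rate-limiting enzyme of bile acid synthesis, had 55.6, 135, 160.5 and 98.8 at ZT0 and 34.2, 55.2, 29.8 and 26.7 at ZT4 and fell 3.08-fold (log2 difference -1.55, SE 0.38, adjusted p = 0.016). Sik1, a kinase that restrains cAMP-driven gluconeogenesis, had 16.4, 21.8, 20.7 and 19.04 at ZT0 and 8.41, 5.13, 6.93 and 7.54 at ZT4 and fell 2.78-fold (log2 difference -1.37, SE 0.24, adjusted p = 6.7e-04, searched exon length). Ppp1r3b, which brings protein phosphatase 1 to glycogen and so favours glycogen synthesis, fell 2.12-fold, from 90.02 ± 19.7 to 42.5 ± 11.5 (SD, n = 4, log2 difference -1.08, adjusted p = 0.0072).

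Sdf2l1, an ER protein that works with the chaperone BiP, fell 2.32-fold, from 14.7, 12.05, 15.8 and 17.4 to 6.86, 4.96, 7.12 and 6.91 (log2 difference -1.10, adjusted p = 0.0033). Fam222a fell 2.61-fold, and its ZT4 livers lay close together, from 17.4 ± 5.31 to 6.66 ± 0.356 (SD, n = 4, log2 difference -1.21, adjusted p = 0.0048). Sgsm1, which carries a RUN and a TBC domain of small-GTPase regulators, fell 2.39-fold (log2 difference -1.13, adjusted p = 5.9e-04). Tsc22d1, a TSC22-family transcription regulator, fell 2.12-fold (log2 difference -1.03, adjusted p = 0.01), and Loxl4, a lysyl oxidase-like enzyme of the matrix, fell 2.14-fold (log2 difference -1.03, adjusted p = 5.9e-04). That none of the 12 lower genes had overlapping groups follows from the naming rule, which required it. Aacs (adjusted p = 0.0749) and Tsc22d1 (adjusted p = 0.0747) missed the threshold without ZT0 replicate 3. Ppp1r3b (adjusted p = 0.0548 to 0.0596) missed the threshold without ZT0 replicate 3 or ZT4 replicate 4. Cyp7a1 (adjusted p = 0.0677 to 0.109) missed the threshold without ZT0 replicate 2 or 3 or ZT4 replicate 4.

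Of 16 genes of fatty acid synthesis 14 had differences below 0, and 2 passed the test as lower and 0 as higher, with a median log2 difference of -0.38. Thrsp, which promotes lipogenesis, had 61.5, 147, 319 and 73.9 at ZT0 and 60.97, 71.8, 11.9 and 25.6 at ZT4. ZT0 livers ranged widely and the groups overlapped, while the mean fell 3.53-fold (log2 difference -1.79, SE 0.46, adjusted p = 0.022). Srebf1, the lipogenic transcription factor, had 150.0, 296, 355 and 196 at ZT0 and 148, 189, 90.8 and 136 at ZT4 and fell 1.77-fold with overlap (log2 difference -0.78, SE 0.20, adjusted p = 0.022). Fasn, Acly and Pnpla3 had differences of -0.93 (adjusted p = 0.19), -0.85 (adjusted p = 0.088) and -1.18 (adjusted p = 0.14), which did not pass. From ZT24 8 of the 16 were lower and 0 higher, on the values as deposited 1 was lower, and with the 8 compared libraries alone 0 were. Thrsp (adjusted p = 0.0776 to 0.193) and Srebf1 (adjusted p = 0.0632 to 0.189) missed the threshold without ZT0 replicate 2 or 3 or ZT4 replicate 3 or 4.

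Cholesterol synthesis and uptake genes, which SREBP2 controls, had 0 higher and 1 lower gene of 23, with a median of -0.26. Differences below 0 numbered 22 of 23, 21 with median-of-ratios scaling, 19 on the values as deposited and 18 from ZT24. Of the 13741 genes with a mean of at least 1 scaled count, 7590 were below 0 in the main scaling. Sqle, which makes squalene epoxide, had a log2 difference of -0.77 (adjusted p = 0.15) and Mvd, of the mevalonate pathway, one of -0.79 (adjusted p = 0.11), neither past the threshold. From ZT24 2 of 23 were lower and 0 higher. In the bile acid list 2 of 10 genes were higher and 1, Cyp7a1, lower. Abcg5 and Abcg8, which encode the paired subunits of the transporter that secretes sterols into bile, rose together. Abcg5 had 69.03, 78.3, 75.7 and 86.8 at ZT0 and 103, 115, 142 and 157 at ZT4 (log2 difference 0.72, SE 0.14, adjusted p = 0.0024), and Abcg8 had 25.6, 30.9, 24.6 and 35.6 at ZT0 and 37.6, 46.7, 58.2 and 67.6 at ZT4 (log2 difference 0.81, SE 0.18, adjusted p = 0.0074), and neither pair of groups overlapped. Cyp8b1 had a log2 difference of -0.61 (adjusted p = 0.16) and the export pump Abcb11 one of 0.10 (adjusted p = 0.7). Abcg8 (adjusted p = 0.0559 to 0.0605) missed the threshold without ZT0 replicate 3 or ZT4 replicate 4.

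Genes known for fasting gave few calls over these 4 h, but only 1.02% of all genes were higher and 1.7% lower. In lists this short 0 calls lies near that share. Of 15 PPARα targets 0 were higher and 0 lower by limma, with a median of 0.27 and 12 of 15 differences above 0. At an unadjusted p under 0.05 by limma 4 of them were higher and 0 lower, against 1661 and 2150 of all 25400 genes. From ZT24 2 were higher, Angptl4 among them, against 7.19% of all genes. The largest was Angptl4, an inhibitor of lipoprotein lipase, from 4.09 ± 2.29 to 9.49 ± 5.31 (SD, n = 4, log2 difference 0.96, adjusted p = 0.1, searched exon length), while Pdk4, which shuts off pyruvate dehydrogenase, had a log2 difference of -0.18 (adjusted p = 0.88) and Fgf21, the fasting hepatokine, one of 0.21 (adjusted p = 0.29). Fatty acid oxidation and ketogenesis gave 0 higher and 0 lower of 14 (4 higher and 0 lower unadjusted, 2 higher from ZT24, Cpt1a among them), with a median of 0.17 and 13 of 14 above 0. Cpt1a, the gate of mitochondrial fatty acid entry, went from 80.1 ± 8.26 to 114 ± 34.4 (SD, n = 4, log2 difference 0.46, adjusted p = 0.053, searched exon length).

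In gluconeogenesis and its cAMP control, 0 of 14 genes were higher and 2 lower, Sik1 and Tat, with a median of -0.07. Tat, tyrosine aminotransferase, had 402, 572, 779 and 466 at ZT0 and 309, 368, 231 and 222 at ZT4 and fell 1.97-fold without overlap (log2 difference -0.96, SE 0.25, adjusted p = 0.022). The rate-limiting enzyme genes Pck1 and G6pc did not pass, at a log2 difference of 0.33 (adjusted p = 0.76) and -0.80 (adjusted p = 0.23), nor did the coactivator Ppargc1a (log2 difference 0.36, adjusted p = 0.23). Insulin and FOXO signalling gave 0 higher and 1 lower of 14, Pik3r3, a regulatory subunit of PI3-kinase (from 11.9 ± 1.01 to 7.0996 ± 2.08, SD, n = 4, log2 difference -0.71, adjusted p = 0.0071), while Igfbp1 had a log2 difference of -0.11 (adjusted p = 0.97) and Irs2 one of -0.24 (adjusted p = 0.78). In the glycogen list 2 of 11 were lower and 0 higher, both scaffolds of protein phosphatase 1: Ppp1r3b, above, and Ppp1r3c, from 44.1 ± 3.69 to 23.8 ± 4.38 (SD, n = 4, log2 difference -0.88, adjusted p = 0.0051, searched exon length). Glycogen synthase Gys2 and phosphorylase Pygl had a log2 difference of -0.08 (adjusted p = 0.85) and -0.16 (adjusted p = 0.6). In glycolysis 1 of 13 was lower, Pfkl, liver phosphofructokinase (from 18.1 ± 0.844 to 14.99 ± 1.15, SD, n = 4, log2 difference -0.25, adjusted p = 0.032). From ZT24 the counts were 0 higher in all 4 lists and 4, 3, 2 and 2 lower, with G6pc among the 4. Pfkl was not called from that start (-0.10, adjusted p = 0.36). Pik3r3 (adjusted p = 0.0736) missed the threshold without ZT4 replicate 4. Tat (adjusted p = 0.0600 to 0.161) missed the threshold without ZT0 replicate 2 or 3 or ZT4 replicate 3 or 4. Pfkl (adjusted p = 0.0660 to 0.126) missed the threshold without ZT0 replicate 2 or 3 or ZT4 replicate 1, 2 or 4.

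**Figure D2:**
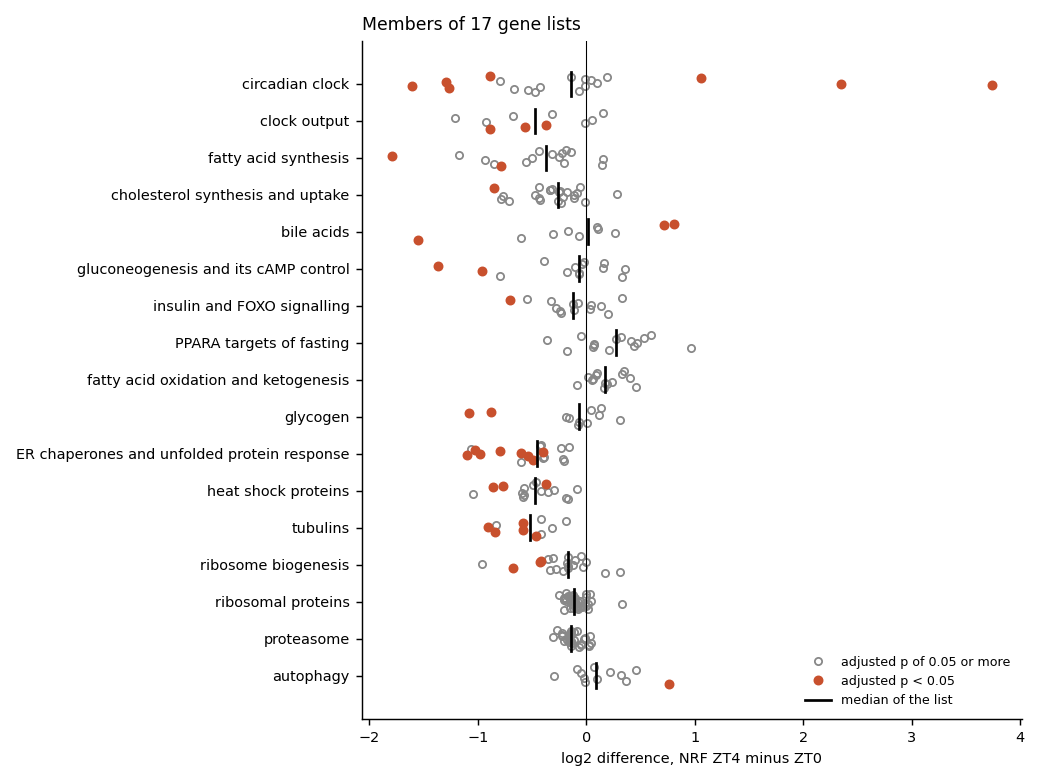
Log2 difference of ZT4 minus ZT0 in NRF liver for every tested member of 17 gene lists, with filled points for genes past an adjusted p of 0.05 and a bar at each list's median. The ER chaperone, heat shock and tubulin lists lie wholly below 0, at medians of -0.46, -0.48 and -0.52, while the PPARα target and fatty acid oxidation lists have medians of 0.27 and 0.17 with 0 filled points. Lists were chosen with earlier results of these data known.

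By number, the ER chaperones held the most lower calls of the 28 gene lists, while the tubulins, with 5 of 10 lower, held the larger share. The lists and their members were chosen with earlier results of these data known. Their counts and shares therefore describe these lists and are not a test of them. Of 18 ER chaperone and unfolded protein response genes 8 were lower and 0 higher, against 1.7% of all genes lower, with a median of -0.46 and all 18 differences below 0 in the main scaling and with median-of-ratios scaling. From ZT24 9 were lower and 17 of 18 were below 0, and between 2 and 9 were lower as each library was left out. On the values as deposited 2 were lower, and with the 8 compared libraries alone 0 were. Manf, a secreted ER stress protein, had 54.1, 72.5, 88.8 and 87.7 at ZT0 and 37.1, 34.9, 33.9 and 37.7 at ZT4 and fell 2.11-fold without overlap (log2 difference -1.03, SE 0.23, adjusted p = 0.0074), but it was not called from ZT24 (adjusted p = 0.13). Dnajb9, a BiP cochaperone, fell 2.11-fold, from 30.2 ± 9.72 to 14.3 ± 2.01 (SD, n = 4, log2 difference -0.98, adjusted p = 0.0087), and Hyou1, a nucleotide exchange factor for BiP, fell 1.71-fold, from 78.2 ± 5.78 to 45.7 ± 11.8 (SD, n = 4, log2 difference -0.79, adjusted p = 0.023). Calr, the lectin chaperone calreticulin, had 245, 200.1, 260.3 and 244 at ZT0 and 174, 151, 185 and 162 at ZT4, a 1.41-fold fall (log2 difference -0.49, adjusted p = 0.032), and Pdia6, a disulfide isomerase, had 225, 151, 185 and 183 at ZT0 and 133, 104, 141 and 131 at ZT4, a 1.46-fold fall (log2 difference -0.54, adjusted p = 0.014). Dnajc3, an inhibitor of the kinase PERK, fell 1.31-fold (log2 difference -0.40, adjusted p = 0.016) and Dnajb11, a cochaperone of BiP, 1.52-fold (log2 difference -0.60, adjusted p = 0.044). Sdf2l1, described above, completes the 8. Hspa5 (BiP), Creld2 and Xbp1 had a log2 difference of -0.60 (adjusted p = 0.2), -1.07 (adjusted p = 0.07) and -0.16 (adjusted p = 0.5). Manf (adjusted p = 0.0546) missed the threshold without ZT0 replicate 3. Pdia6 (adjusted p = 0.0559 to 0.0758) missed the threshold without ZT0 replicate 1 or 3 or ZT4 replicate 2. Hyou1 (adjusted p = 0.0821 to 0.104) and Dnajc3 (adjusted p = 0.0562 to 0.0875) missed the threshold without ZT0 replicate 3 or ZT4 replicate 2 or 4. Calr (adjusted p = 0.0526 to 0.144) missed the threshold without ZT0 replicate 1, 3 or 4 or ZT4 replicate 2 or 4. Dnajb11 (adjusted p = 0.0677 to 0.155) missed the threshold without ZT0 replicate 2, 3 or 4 or ZT4 replicate 2 or 4.

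The ER stress element, CCAAT and CCACG with 9 bases of any kind between them, to which NF-Y and ATF6 bind, was searched on both strands of the RefSeq promoters. It was found in 8 of 16 genes of the ER list with a promoter in the table, against 0.137% of 27025 genes, and in 3 of the 6 called genes that have one, Calr, Pdia6 and Dnajc3. A related element, ATTGG and CCACG with 1 base between them, was found in 2 of 16, Dnajb11 and Herpud1, against 0.0444% of genes. The 3 called promoters with the element are shown 5′ to 3′ (GRCm38.p6) with it in capitals, for Calr (chr8:84846882-84847181, minus strand), Pdia6 (chr12:17266339-17266638, plus strand) and Dnajc3 (chr14:118937682-118937981, plus strand). In Calr the element lies in reverse orientation.
Calr: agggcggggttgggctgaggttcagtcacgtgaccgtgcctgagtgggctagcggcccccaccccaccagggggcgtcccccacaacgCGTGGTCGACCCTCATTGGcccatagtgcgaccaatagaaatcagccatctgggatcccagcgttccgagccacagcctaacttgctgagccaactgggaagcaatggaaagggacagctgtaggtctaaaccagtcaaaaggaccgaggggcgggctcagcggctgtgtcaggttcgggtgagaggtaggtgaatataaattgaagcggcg
Pdia6: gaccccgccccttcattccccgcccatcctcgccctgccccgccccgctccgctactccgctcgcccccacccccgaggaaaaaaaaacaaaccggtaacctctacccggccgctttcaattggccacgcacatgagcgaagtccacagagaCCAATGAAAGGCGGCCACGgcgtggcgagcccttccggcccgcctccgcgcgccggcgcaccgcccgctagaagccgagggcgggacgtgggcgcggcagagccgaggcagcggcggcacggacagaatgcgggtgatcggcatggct
Dnajc3: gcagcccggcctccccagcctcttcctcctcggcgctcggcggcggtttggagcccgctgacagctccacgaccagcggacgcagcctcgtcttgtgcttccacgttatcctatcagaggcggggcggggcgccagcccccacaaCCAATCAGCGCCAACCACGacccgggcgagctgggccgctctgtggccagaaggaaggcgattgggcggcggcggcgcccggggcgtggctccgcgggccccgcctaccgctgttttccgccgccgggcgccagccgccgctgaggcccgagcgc
A match describes the letters in the window and does not show binding.

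All differences of the heat shock genes and tubulins were also below 0, with median-of-ratios scaling too. Of 16 heat shock genes 3 were lower and 0 higher, with a median of -0.48, and from ZT24 8 were lower. Hspb1, a small heat shock protein, had 14.1, 16.5, 13.3 and 10.4 at ZT0 and 6.101, 6.41, 9.04 and 6.601 at ZT4, a 1.93-fold fall without overlap (log2 difference -0.86, SE 0.17, adjusted p = 0.0026). Bag3, which links HSP70 to autophagy, went from 58.8 ± 15.9 to 33.4 ± 6.09 (SD, n = 4) with overlap (log2 difference -0.77, adjusted p = 0.04), and Ahsa1, the activator of HSP90's ATPase, went from 17.2 ± 1.33 to 13.1 ± 1.11 (SD, n = 4, log2 difference -0.37, adjusted p = 0.014). Hsph1 narrowly missed (log2 difference -1.04, adjusted p = 0.057), and Hspa1a and Hspa1b had a log2 difference of -0.19 (adjusted p = 0.78) and -0.58 (adjusted p = 0.52). Of 10 tubulins, the subunits of microtubules, 5 were lower and 0 higher, with a median of -0.52 and 7 lower from ZT24. Tubb2a had 71.9, 84.4, 108 and 76.8 at ZT0 and 61.5, 44.8, 44.3 and 32.05 at ZT4 and fell 1.87-fold without overlap (log2 difference -0.91, SE 0.18, adjusted p = 0.0021), and Tuba1c fell 1.83-fold with overlap (log2 difference -0.84, adjusted p = 0.01). Tubb4b, Tuba4a and Tuba1a fell 1.51-, 1.53- and 1.48-fold (adjusted p = 0.018, 0.039 and 0.021). The tubulin paralogues share sequence, so the way reads between them were counted can bear on each. On the values as deposited 1 heat shock gene and 0 tubulins were lower, and with the 8 compared libraries alone 0 of either list. Without 1 library the lower counts ran from 1 to 6 for heat shock genes and from 1 to 6 for tubulins. Ahsa1 (adjusted p = 0.0715 to 0.0955), Tuba1c (adjusted p = 0.0700 to 0.118) and Tubb4b (adjusted p = 0.118 to 0.131) missed the threshold without ZT0 replicate 3 or ZT4 replicate 4. Tuba1a (adjusted p = 0.0531 to 0.186) missed the threshold without ZT0 replicate 2 or 3 or ZT4 replicate 3 or 4. Bag3 (adjusted p = 0.0526 to 0.216) missed the threshold without ZT0 replicate 2, 3 or 4 or ZT4 replicate 1, 2 or 4. Tuba4a (adjusted p = 0.0524 to 0.175) missed the threshold without ZT0 replicate 2, 3 or 4 or ZT4 replicate 2, 3 or 4.

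Ribosome biogenesis had 3 lower and 0 higher of 20 genes, with a median of -0.17, with 11 lower from ZT24, 1 on the values as deposited and 0 with the 8 compared libraries alone. Utp20, a small-subunit processome protein, went from 43.6 ± 3.63 to 32.3 ± 3.396 (SD, n = 4, log2 difference -0.42, adjusted p = 0.015), Bop1, which acts in large-subunit assembly, from 35.9 ± 5.07 to 26.5 ± 2.09 (SD, n = 4, log2 difference -0.42, adjusted p = 0.011), and Nolc1, a nucleolar phosphoprotein, from 6.77 ± 1.24 to 3.94 ± 1.35 (SD, n = 4, log2 difference -0.68, adjusted p = 0.024, searched exon length). Of 40 ribosomal protein genes 0 were higher and 0 lower by limma, also at an unadjusted p under 0.05, and the median was -0.12 from ZT0 but 0.07 from ZT24. Of 31 proteasome genes 0 were higher and 0 lower (0 and 8 unadjusted, against 1661 and 2150 of all 25400 genes), with 9 lower from ZT24 (6.89% of all genes). Utp20 (adjusted p = 0.0564 to 0.0942) and Bop1 (adjusted p = 0.0564 to 0.0818) missed the threshold without ZT0 replicate 2 or 3 or ZT4 replicate 4. Nolc1 (adjusted p = 0.0543 to 0.124) missed the threshold without ZT0 replicate 2, 3 or 4 or ZT4 replicate 2 or 4.

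The remaining lists held few calls. Ulk1, the kinase that starts autophagy, had 36.4, 30.1, 25.6 and 37.4 at ZT0 and 53.5, 44.8, 56.9 and 66.5 at ZT4 and rose 1.71-fold without overlap (log2 difference 0.76, SE 0.13, adjusted p = 5.9e-04), as 1 of 12 autophagy genes (0 lower, 4 higher from ZT24). Trib3, a pseudokinase induced by ATF4, rose from 1.96 ± 1.02 to 5.47 ± 1.02 (log2 difference 1.17, adjusted p = 0.0087), as 1 of 15 integrated stress response and serine synthesis genes, while Atf4 and Asns had a log2 difference of -0.19 (adjusted p = 0.68) and -0.06 (adjusted p = 0.87). In the glucocorticoid list 2 of 11 were higher, Mt2 and Klf9, a Krüppel-like repressor (from 16.3 ± 4.26 to 25.9 ± 3.74, SD, n = 4, log2 difference 0.66, adjusted p = 0.008, searched exon length), and 1 lower, Tsc22d3, which encodes GILZ (from 173 ± 20.5 to 96.5 ± 16.3, SD, n = 4, log2 difference -0.84, adjusted p = 0.038), with Fkbp5 at a log2 difference of 0.72 (adjusted p = 0.48). Srsf5 rose as 1 of 10 splicing factor and CLK kinase genes (from 25.4 ± 4.29 to 35.3 ± 2.18, SD, n = 4, log2 difference 0.48, adjusted p = 0.037). Nags, whose product makes the activator of carbamoyl phosphate synthetase, fell as 1 of 17 amino acid breakdown and urea cycle genes (from 20.8 ± 2.42 to 15.2 ± 1.73, SD, n = 4, log2 difference -0.43, adjusted p = 0.021). Igfals was the 1 higher gene of 11 in the growth hormone and IGF list, with Igf1 at a log2 difference of 0.01 (adjusted p = 1.0). Trib3 (adjusted p = 0.0664) and Klf9 (adjusted p = 0.0867) missed the threshold without ZT0 replicate 3. Nags (adjusted p = 0.0940 to 0.120) missed the threshold without ZT0 replicate 2 or 3 or ZT4 replicate 4. Srsf5 (adjusted p = 0.0521 to 0.241) missed the threshold without ZT0 replicate 2 or 3 or ZT4 replicate 1, 2 or 4. Tsc22d3 (adjusted p = 0.0522 to 0.164) missed the threshold without ZT0 replicate 2, 3 or 4 or ZT4 replicate 2, 3 or 4.

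By limma 0 genes were higher and 0 lower in the amino acid transport list (8 genes), the immediate early list (12), the drug-metabolising list (10), the acute phase list (14) and the pair of cold-inducible genes. At an unadjusted p under 0.05 the higher and lower counts there were 2 and 0, 1 and 1, 1 and 2, 2 and 0, and 2 and 0. Over all 25400 genes they were 1661 and 2150. Cirbp, the cold-inducible RNA-binding protein, went from 1.85 ± 0.861 to 3.37 ± 1.12 (SD, n = 4, log2 difference 0.64, adjusted p = 0.059) and Rbm3 had a log2 difference of 0.31 (adjusted p = 0.28). From ZT24 1 transporter, 1 immediate early gene, 1 acute phase gene and 1 cold-inducible gene were higher and 3 drug-metabolising genes were lower. Over all genes 7.19% were higher and 6.89% lower from that start.

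Of 3521 long noncoding genes tested 24 were higher and 29 lower, and 3 and 2 met the naming rule. Gm38411 had 5.59, 8.496, 6.35 and 4.06 at ZT0 and 1.43, 2.25, 2.43 and 2.01 at ZT4 and fell 3.02-fold (log2 difference -1.21, SE 0.18, adjusted p = 5.7e-05). 2900009J06Rik, of whose exons 18.7% are overlapped by Acmsd on the other strand, fell 2.58-fold (log2 difference -1.05, adjusted p = 0.0091). Gm14097, with 10.2% of its exons under Shld1 on the other strand, rose 2.901-fold (log2 difference 1.15, adjusted p = 0.0023), and Gm12781, with 26.3% under Kctd15, rose 1.73-fold (log2 difference 0.50, adjusted p = 0.024). Gm45774, opposite Mt2, rose 6.31-fold from a level near 0, from 0.431 ± 0.353 to 2.72 ± 0.984 (SD, n = 4, log2 difference 1.37, adjusted p = 0.045). Use of strand in counting is not given in the sources used here, so reads of these pairs cannot be told apart with certainty. Gm12781 (adjusted p = 0.0677 to 0.146) missed the threshold without ZT0 replicate 2 or 3 or ZT4 replicate 2 or 4. Gm45774 (adjusted p = 0.0528 to 0.173) missed the threshold without ZT0 replicate 2, 3 or 4 or ZT4 replicate 1, 3 or 4.

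Over the rest of the NRF day, 9 of the 12 leading higher genes had a higher mean at ZT8 than at ZT4, and 7 of the 12 leading lower genes a lower one. Nr1d1 reached 83.5 ± 4.703 scaled counts at ZT8 and returned to 0.557 ± 0.115 at ZT20 (SD, n = 4 at each time). Nr1d2 went on to 215 ± 44.97 at ZT12, later than Nr1d1. Mt2 reached 54.7 ± 12.2 at ZT8, while Igfals had its highest mean at ZT4 and stood at 80.5 ± 38.7 at ZT8. Cry1 was highest at ZT20, 186 ± 22.1, was already lower at ZT0 (ZT0 minus ZT20 log2 difference -0.80, SE 0.20, adjusted p = 0.0053), and was lowest at ZT8, 16.6 ± 2.01. Aacs ran from 359 ± 122 at ZT20 through 185 ± 84.7 at ZT0 to its lowest mean at ZT4. Cyp7a1 was highest at ZT16, 249 ± 59.98, and lowest at ZT4. Sik1 was highest at ZT12, 29.8 ± 9.62, and also lowest at ZT4. Sdf2l1 and Tubb2a were at 3.31 ± 0.796 and 3.94 ± 0.507 at ZT12, against 6.46 ± 1.01 and 45.7 ± 12.1 at ZT4. Per2 fell to ZT4 and was higher again at ZT8 (19.02 ± 4.98, ZT8 minus ZT4 log2 difference 1.63, SE 0.26, adjusted p = 3.9e-05).

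**Figure D3:**
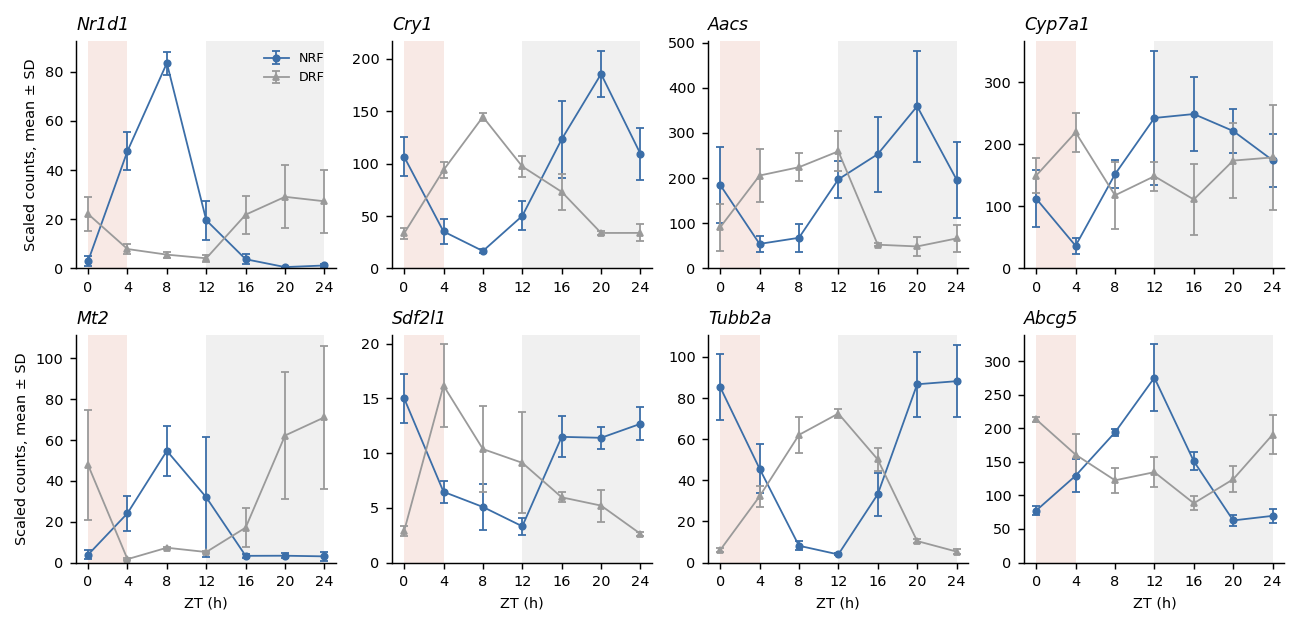
Mean scaled count with SD (n = 4) of 8 genes against ZT in h, with blue circles for NRF, grey triangles for DRF, grey background for the dark phase (ZT12 to ZT24) and red shading for ZT0 to ZT4. In NRF Nr1d1 climbs within the shaded window while Cry1, Aacs, Cyp7a1, Sdf2l1 and Tubb2a descend. In DRF the means of these genes move the opposite way there.

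DRF livers gave the same 4 h after food in the opposite light phase. There 657 genes were higher at ZT16 than at ZT12 (2.59%) and 498 lower (1.96%). The difference between the regimens, NRF change minus DRF change, was more positive in NRF for 107 genes (0.421%) and more negative for 242 (0.953%). Nr1d1 rose in both, from 4.13 ± 1.42 to 21.9 ± 7.78 in DRF (SD, n = 4), and by more in NRF, by 1.62 (SE 0.44, adjusted p = 0.048) on the log2 scale. Abcg5 and Abcg8, which rose in NRF, went from 135 ± 22.3 to 88.3 ± 10.7 and from 42.1 ± 7.93 to 29.3 ± 4.04 in DRF, and the regimens differed by 1.31 (SE 0.20, adjusted p = 3.2e-04) and 1.31 (SE 0.25, adjusted p = 0.0045). G6pc, glucose-6-phosphatase, rose in DRF, from 143 ± 51.03 to 306 ± 55.7, and had 133, 212, 169.6 and 262 at ZT0 and 147, 67.5, 97.4 and 140.1 at ZT4 in NRF. It was not called in NRF from ZT0 but was called lower from ZT24, and the regimens differed by -1.95 (SE 0.48, adjusted p = 0.026). Irs2, the insulin receptor substrate that is induced when insulin falls, rose in DRF from 23.1 ± 11.3 to 61.8 ± 4.37, had a log2 difference of -0.24 (adjusted p = 0.78) in NRF, and differed by -1.74 (SE 0.40, adjusted p = 0.014). Fam222a fell in NRF, went from 8.55 ± 0.980 to 16.3 ± 9.08 in DRF, and differed by -1.94 (SE 0.36, adjusted p = 0.0032). The difference of Nr1d1 missed the threshold without any 1 of 13 of the 16 libraries, all but DRF ZT16 replicates 3 and 4 and NRF ZT0 replicate 4 (adjusted p = 0.0541 to 0.157). That of G6pc missed it without DRF ZT12 replicate 1 or 2, DRF ZT16 replicate 4, NRF ZT0 replicate 2 or 4 or NRF ZT4 replicate 2 (0.0531 to 0.0722). With the compared libraries alone the differences of Nr1d1, G6pc and Irs2 missed the threshold (adjusted p = 0.144, 0.0537 and 0.0866), as they did on the values as deposited (0.190, 0.0893 and 0.0730), while those of Abcg5, Abcg8 and Fam222a passed in both. Cry1 differed by -1.18 (SE 0.28, adjusted p = 0.016). Ppard fell in DRF too, with a log2 difference of -1.48 (adjusted p = 1.1e-07), and the difference between the regimens was -0.15 (SE 0.24, adjusted p = 0.87).

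By list, 4 of 17 amino acid breakdown genes and 3 of 14 gluconeogenesis genes had a more negative change in NRF, with 6 and 4 genes higher at ZT16 in DRF, where NRF had 0 higher in both. The first were Asl and Arg1 of the urea cycle and Tdo2 and Aass of tryptophan and lysine breakdown (-1.22, -0.61, -1.03 and -0.68, adjusted p = 0.0032, 0.026, 0.0076 and 0.02), and the second were G6pc, Got1, an aspartate aminotransferase, and Klf15 (-1.37 for Got1 and -0.84 for Klf15, adjusted p = 0.014 and 0.022). Of ER chaperones 3 were lower in DRF and 0 differed between the regimens by limma, of tubulins 0 were lower in DRF and 0 differed, and of heat shock genes 1 was lower, 2 were higher and 3 had a more negative change in NRF. Those 3 were Hsp90ab1 (-0.73, SE 0.15, adjusted p = 0.008), Hspb1 (-1.24, SE 0.24, adjusted p = 0.0043) and Ahsa1 (-0.69, SE 0.13, adjusted p = 0.0029). In fatty acid synthesis 3 genes were lower in DRF and 0 differed. At an unadjusted p under 0.05 the changes differed for 0 more positive and 5 more negative ER chaperones, 0 and 1 tubulins and 2 and 2 genes of fatty acid synthesis, and 4 tubulins were lower in DRF. Over all 25400 genes 1391 changes were more positive and 1928 more negative in NRF at that threshold. In DRF 1934 genes were lower at it. The count of genes with a more positive NRF change was 49 without DRF ZT16 replicate 1, 56 without DRF ZT12 replicate 2, 66 without NRF ZT0 replicate 2, 56 without NRF ZT0 replicate 3 and 53 without NRF ZT4 replicate 4, and that with a more negative change was 148 without DRF ZT16 replicate 1 and 137 without NRF ZT4 replicate 4.

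At the same clock hours, with food being given rather than withdrawn, 1626 genes were higher at ZT4 than at ZT0 in DRF (6.4%) and 1498 lower (5.9%). NRF and DRF changes differed in 1728 genes with a more positive (6.8%) and 2121 with a more negative (8.35%) NRF change. Mt2 fell in DRF, from 47.8 ± 26.9 to 1.65 ± 0.481 (SD, n = 4), and the regimens differed by 6.48 (SE 0.71, adjusted p = 4.5e-09) on the log2 scale. Nr1d1 and Nr1d2 also fell in DRF, from 22.1 ± 6.81 to 7.902 ± 2.14 and from 157 ± 4.69 to 71.7 ± 8.65, with differences of 5.09 (SE 0.44, adjusted p = 2.2e-11) and 3.48 (SE 0.23, adjusted p = 3.0e-14). Sdf2l1 rose in DRF, from 2.87 ± 0.455 to 16.2 ± 3.76, a difference of -3.23 (SE 0.31, adjusted p = 3.7e-10). Creld2, an ER protein, rose from 10.4 ± 3.32 to 86.4 ± 18.6 in DRF and had a log2 difference of -1.07 (adjusted p = 0.07) in NRF, a difference of -4.03 (SE 0.47, adjusted p = 1.9e-08). Hsph1, an HSP110 chaperone, rose from 17.9 ± 10.3 to 76.7 ± 13.2 in DRF, a difference of -3.24 (SE 0.44, adjusted p = 4.0e-07). Of the ER chaperone list 17 of 18 were higher in DRF and 17 had a more negative change in NRF. The numbers were 13 and 14 of 16 for heat shock genes, 10 and 10 of 10 for tubulins, and 7 and 9 of 16 for fatty acid synthesis. Ppard changed by -1.63 in NRF, and had a log2 difference of 0.02 in DRF (adjusted p = 0.99), with a difference of -1.65 (SE 0.24, adjusted p = 1.3e-06).

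**Figure D4:**
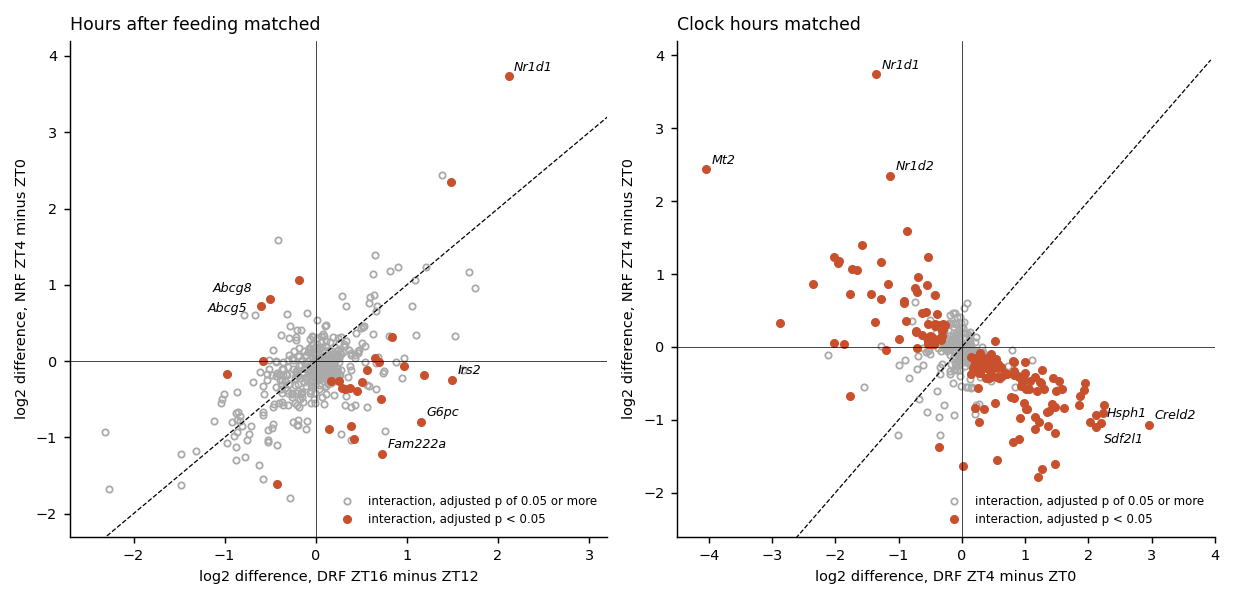
Log2 difference over 4 h in NRF liver on the y axis against DRF liver on the x axis for 430 genes of the lists and named genes, at fasting onset (left) and at the same clock time (right), with filled points where the regimens differed at an adjusted p under 0.05 and a dashed line of equal differences. Filled points number 28 at fasting onset and 169 at the same clock time.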

How the data were processed

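RNA from 56 livers of separate animals was analysed, of which 8 entered the comparison of ZT4 with ZT0 under NRF, and all 56 entered the fit. Each column was assigned to its animal by name, which left 0 columns unassigned. The authors deposited a gene table whose values are named TPM but are not linear in reads, so they are treated as a score. How they were made is not given in the sources used here. The values follow the form of scaled counts of which a logarithm was taken, divided by exon length and brought to a common total, which is an inference that every scaled count rests on. The submitters' processing notes name CASAVA 1.8, featureCounts 1.5.0-p3 and the builds mm10 and GRCm38.p6, while the aligner, and whether counting was stranded, are not given in the sources used here. The protocol describes ribosomal RNA depletion, which was followed here, whereas the molecule field says polyA RNA. Tables of transcripts and circular RNAs were not used here.

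The logarithm was undone with GENCODE vM21 exon lengths. Of 25415 genes listed, the annotated length gave whole counts for 23005, and for 2211, many of them on chromosomes 17 to 19, a length was found by search. Another 137 deep genes passed a wider tolerance of 0.2, 47 were too deep to judge and 15 could not be rebuilt. For values up to 1000 counts, 96.9% came out whole at a tolerance of 0.05. Recovered counts summed to 380.5 M to 494.3 M in the 8 libraries and were not taken as read depth. They exceed the reads per sample that the study gives, so what 1 recovered count stands for is unknown, and only the variation among animals measures precision here.

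Tests were made with limma 3.58.1 in R 4.3.3 on log2(scaled count + 1), with trended moderation over 14 group means (42 residual degrees of freedom), two-sided, with Benjamini-Hochberg adjustment over 25400 genes. Because of the added 1, differences of low genes are smaller than their true change, and fold values are ratios of group means. Differences between regimens were interaction contrasts in the same fit. The fit was checked on simulated data. Exact permutation tests of single indices used scipy 1.17.1. The 24 leading protein-coding genes were, in each direction, the 12 with the largest difference among genes with a symbol that is not a clone name, an adjusted p under 0.05 from both ZT0 and ZT24, a mean of at least 10 scaled counts in the higher group and no overlap of libraries. Long noncoding genes needed a mean of at least 2, list members were named beside their list's count, and the 3 genes with the largest regimen difference each way were named. Of the list and marker genes 17 were not analysed here, because they were not found in the table or could not be rebuilt. A few further genes of the lists, 1 of them among the 12 leading lower genes, entered the counts but are not reported here by name. The members and the lists were chosen with earlier results of these data known. Alternatives changed the pseudocount, a low-level filter, the scaling, the deposited scale, the libraries fitted, a replicate block, robust moderation, the length trend, the starting group and each library in turn.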

Additional observations from a re-analysis of the deposited data

Results flagged for a closer look

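In groups of 4 livers a single library stood apart from its group, by a gap to the nearest library that exceeded Dixon's 95% critical share of the group's range, in 11 of 170 groups tested, and chance gives about 1 in 20. Among the lower genes these were Ppard at ZT4 (replicate 1 at 5.531 scaled counts), Tsc22d1 at ZT4 (replicate 1 at 23.83), Sdf2l1 at ZT4 (replicate 2 at 4.958), Hspb1 at ZT4 (replicate 3 at 9.042), Utp20 at ZT0 (replicate 1 at 38.16), Wee1 at ZT0 (replicate 4 at 3.442) and Tsc22d3 at ZT0 (replicate 3 at 203.3). Among the higher genes they were Adamts6 at ZT4 (replicate 3 at 9.285) and Arrdc3 at ZT4 (replicate 3 at 61.72). Cfd, the 1 adipocyte marker tested, was above 0 in ZT0 replicate 3 (0.008041) and ZT4 replicate 1 (0.009015) and at 0 in the other libraries.

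The change over the first 4 h without food differed between night-fed and day-fed liver in 107 genes with a more positive and 242 with a more negative change under NRF, by the interaction contrast in limma. The named genes with the largest differences on the log2 scale were Nr1d1 (1.62), Abcg5 (1.31) and Abcg8 (1.31) on the positive side, and G6pc (-1.95), Fam222a (-1.94) and Irs2 (-1.74) on the negative side.

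At the same clock hours the regimens differed in 1728 genes with a more positive and 2121 with a more negative NRF change. Mt2 (6.48), Nr1d1 (5.09) and Nr1d2 (3.48) led the positive side, and Creld2 (-4.03), Hsph1 (-3.24) and Sdf2l1 (-3.23) the negative side.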

How the results depend on the processing

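Genes called higher and lower at ZT4 numbered 259 and 431, and 3 and 2 with the 8 compared libraries alone, 118 and 91 on the values as deposited, 1827 and 1750 with ZT24 as the start, and 2019 and 6964 with ZT24 as the start and the length trend removed, the last chosen after seeing the data. Each of the other settings stayed within 1.5 times. The length trend was fitted on genes with a mean of at least 1 scaled count but subtracted from all genes, also those near 0. With it removed the median log2 difference from ZT0 was 0.061 over all genes and 0.0018 over genes with that mean. Counts over all genes with the trend removed therefore include a shift shared by low genes. Leaving out 1 library gave 74 to 334 higher and 115 to 617 lower, and moved a count by over 1.5 times for ZT0 replicate 2 (119 and 226), ZT0 replicate 3 (74 and 115) and ZT4 replicate 4 (121 and 164). Genes whose change differed from DRF at fasting onset, 107 more positive and 242 more negative, became 42 and 136 with the compared libraries alone, 60 and 52 as deposited, 462 and 786 with ZT24, 693 and 2547 with ZT24 and no length trend, and 49 to 133 and 137 to 262 without 1 library, moving by over 1.5 times without DRF ZT16 replicate 1 (49 and 148) or NRF ZT4 replicate 4 (53 and 137), and for the more positive genes also without DRF ZT12 replicate 2 (56), NRF ZT0 replicate 2 (66) or NRF ZT0 replicate 3 (56). At the same clock time, 1728 and 2121 became 1558 and 1372 as deposited, and 1402 to 1784 and 1736 to 2288 without 1 library. The cause was not tested. Of 1296 results of the 72 named genes under alternatives, 1044 kept their direction and side of the threshold, 240 lost the call, 10 gained one and 2 reversed, both of Irs2, which was not called (0.1984 with ZT24, 0.2454 with ZT24 and no length trend). The losses were uneven. With the 8 compared libraries alone 64 of the 72 lost the call, on the values as deposited 30, and with ZT24 as the start 5, where 2 gained one. The pseudocount, replicate block and robust moderation lost 0, which raises the pooled share. Of 68 called named genes 29 stayed called without any 1 library. Same-numbered livers did not pair (correlations of deviations 0.198, 0.028, -0.062 and 0.039, with 1 of 4 ZT0 libraries closest to its own number), and the replicate block gave 264 higher and 436 lower, 115 and 261, and 1738 and 2118, changing no call of a named gene from ZT0 to ZT4 but ending that of Nr1d1's difference from DRF at fasting onset (adjusted p = 0.058, limma, as with a pseudocount of 0.1). The number of animals, 4 a group, limits small changes.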

Other observations

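The following genes were chosen after their values were seen. The values of mitochondrially encoded genes differed widely between libraries of ZT4, and whether they are transcript levels or arose in making the deposited table is not known. mt-Co3, a subunit of cytochrome c oxidase, had 0.278, 0.0596, 0.0784 and 0.130 scaled counts at ZT0 and 140.4, 199, 0.133 and 139 at ZT4, which passed the test (log2 difference 5.34, SE 0.94, adjusted p = 6.7e-04), and it was under 1 scaled count in 50 of the 56 libraries. mt-Co1, another subunit of that complex, had 4706, 4702, 5095 and 5319 scaled counts at ZT0 and 1.04, 105, 4459.7 and 5595 at ZT4 and did not pass (log2 difference -4.19, SE 2.58, adjusted p = 0.49). mt-Cytb, of complex III, had 524, 461, 452 and 605 scaled counts at ZT0 and 736, 0.510, 506 and 0.217 at ZT4 (log2 difference -4.14, SE 1.48, adjusted p = 0.13), and the ribosomal RNA mt-Rnr2 had 863, 858, 836 and 1088 scaled counts at ZT0 and 139, 10.99, 958 and 29.9 at ZT4 (log2 difference -3.43, SE 1.15, adjusted p = 0.1).

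Further genes passed the test outside the rule for naming. Rgs16, a regulator of G-protein signalling, had 0.661, 1.64, 0.963 and 2.84 scaled counts at ZT0 and 15.98, 7.37, 6.31 and 8.98 at ZT4 (log2 difference 2.07, SE 0.48, adjusted p = 0.01). Tsku, a secreted hepatokine, had 27.997, 51.7, 86.98 and 30.7 scaled counts at ZT0 and 40.9, 4.39, 10.5 and 4.39 at ZT4 (log2 difference -2.06, SE 0.44, adjusted p = 0.0058). Mid1ip1, which activates acetyl-CoA carboxylase, had 17.3, 26.3, 44.7 and 6.82 scaled counts at ZT0 and 6.11, 7.15, 3.95 and 4.43 at ZT4 (log2 difference -1.71, SE 0.44, adjusted p = 0.024). Cux2, a homeodomain factor known for female-biased expression in liver, had 7.12, 2.84, 3.72 and 7.35 scaled counts at ZT0 and 27.6, 5.92, 31.4 and 32.05 at ZT4 (log2 difference 1.86, SE 0.43, adjusted p = 0.011).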
